A study of Homo sapiens with 20 samples.

Results

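The response of U266 cells to I3MO was measured as the difference in RNA level between U266 cultures given 10 µM I3MO and U266 cultures given DMSO, the solvent control. Its genes were all those with 1 FPKM (a fragment count divided by transcript length and library size) or more in 2 or more of the 4 U266 libraries, which left 11087 of the 60483 genes in the table, 8389 of them protein-coding. The level rule used no comparison between the treatments, but 305 genes met it only through the I3MO libraries and 662 only through the DMSO libraries. At the edge of the rule, 429 genes had a second highest U266 value of 1 to 1.1 FPKM and 456 had one of 0.9 to 1 FPKM.

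U266 is an established human multiple myeloma cell line, and the labels give its genotype as wild type and its source as bone marrow. The 2 U266 groups, 10 µM I3MO and DMSO, had 2 libraries each. The series also holds ANBL6, ANBL6BR, ARP1 and RPMI8226 cells, each with I3MO and DMSO libraries, 20 libraries in all; ARP1 and RPMI8226 received 10 µM like U266, and ANBL6 and ANBL6BR received 5 µM. No source used here states how long the cells were treated or whether replicates came from separate cultures, so the p-values below measure only the spread between these libraries, which may be technical. All results come from 1 cell line, and a population of cultured cells was read in bulk.

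I3MO is indirubin-3′-monoxime, a small molecule of the indirubin family that inhibits several kinases, among them cyclin-dependent kinases and GSK3; indirubins are also known ligands of the aryl hydrocarbon receptor. U266 cells are known for making immunoglobulin E with a lambda light chain, for producing the IL6 that they respond to, and for a CCND1 gene driven by an immunoglobulin enhancer. Plasma cells carry a heavy load of secreted protein, and the integrated stress response, with the transcription factors ATF4 and CHOP (DDIT3), and the unfolded protein response of the endoplasmic reticulum (ER) adjust their amino acid supply and folding capacity.

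The library totals, recovered from the steps of the FPKM values, were 14702727 and 16362412 fragments in the I3MO libraries and 13740695 and 15422189 in the DMSO libraries. The second I3MO library stood apart. It held 9476 genes at 1 FPKM or more, against 11257 in the first I3MO library, and 10880 and 10806 in the DMSO libraries. The 2 I3MO libraries correlated at r = 0.962 and the 2 DMSO libraries at r = 0.978, on the log2 scale across genes, which are not independent replicates. Classes of short RNAs were where the second I3MO library was lowest, and miRNA genes lowest of all. Against the mean of the DMSO libraries, the median of the 95 snRNA genes was 0.27 in the first I3MO library and −0.75 in the second, on the log2(FPKM + 1) scale. For the 92 miRNA genes these medians were −0.14 and −0.97, for the 76 snoRNA genes −0.01 and −0.96, for the 79 miscellaneous RNA genes 0.22 and −0.87, and for the 8389 protein-coding genes −0.02 and −0.07. For some lists the counts of called genes are given below also without the second I3MO library. Its removal also moved counts that are not given, among them those of the G1/S, interferon, MHC class II and surface antigen lists. The part of this library in the results was not tested in any other way.

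**Figure D1:**
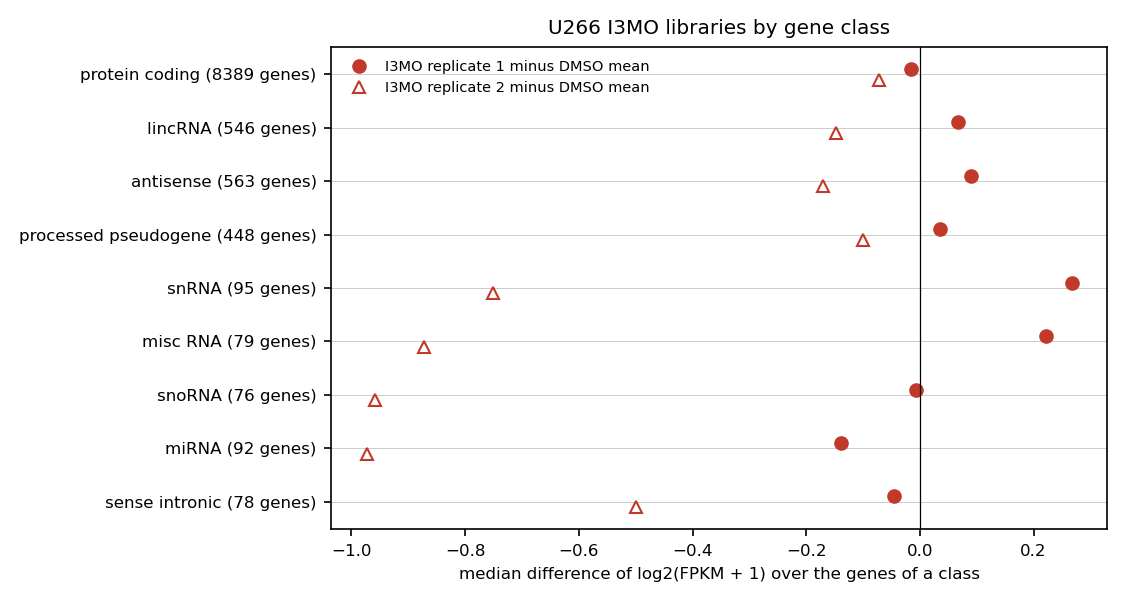
Median difference of log2(FPKM + 1) between each I3MO library of U266 and the mean of the 2 DMSO libraries (x axis), for the genes of each annotated class (y axis). Circles are I3MO replicate 1 and triangles I3MO replicate 2; the classes of short RNAs lie between −0.75 and −0.97 in replicate 2, while both replicates lie close to 0 for protein-coding genes.

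The plasma cell label was borne out by the marker genes. Of 11 plasma cell markers 10 met the level rule, and the list summed to 218.5 and 231.4 FPKM in the I3MO libraries and to 506.5 and 507.8 FPKM in the DMSO libraries. IRF4, the transcription factor on which myeloma cells depend, was at 39.9 and 46.4 FPKM with I3MO and 42.8 and 45.5 FPKM with DMSO. IGHE, the epsilon heavy chain constant gene, was at 570.0 and 549.6 FPKM with I3MO and 627.7 and 669.0 FPKM with DMSO. Markers of other cell types were near 0: 1 of 8 B cell, 1 of 9 T cell, 1 of 8 myeloid, 2 of 6 erythroid, 1 of 6 stromal, 1 of 5 endothelial and 0 of 5 epithelial markers met the level rule, and the summed level of these 7 lists ran from 0.44 to 4.66 FPKM over the I3MO libraries and from 0.739 to 6.33 FPKM over the DMSO libraries. MS4A1, FCGR3A, CDH5 and EPCAM, which define B cells, myeloid cells, endothelium and epithelium, were listed at 0 in the 4 libraries. An exact 0 in this table does not show that a gene was silent, since XBP1, which secreting plasma cells use, was also listed at 0.

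The response ran in both directions, with more genes called lower than higher. In a limma fit with Benjamini-Hochberg adjustment over the 15687 genes tested, 1645 genes (10.5%) rose and 2472 (15.8%) fell at an adjusted p under 0.05. Of the 11087 U266 genes, 1527 (13.8%) rose and 2252 (20.3%) fell, so 34.1% were called and 40.4% of those calls were rises. After median-ratio scaling of the libraries 45.3% of the calls among U266 genes were rises. The level rule also let in more genes through the DMSO libraries alone (662) than through the I3MO libraries alone (305). At least a 2-fold change was called for 261 genes upward (2.35%) and 492 downward (4.44%). The median change of the U266 genes was −0.05 on the log2 scale and that of all genes tested −0.02. Without the second I3MO library 1549 U266 genes rose and 1921 fell, of which 1192 and 1672 were also called with both libraries. Without the first, 1379 rose and 2454 fell. Without the second DMSO library the 1645 rises over all genes tested became 1075. None of the U266 genes called in the full fit was called in the opposite direction in any of the 15 alternative fits. For 6947 U266 genes (62.7%) the I3MO and DMSO libraries did not overlap, so a lack of overlap alone was common.

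**Figure D2:**
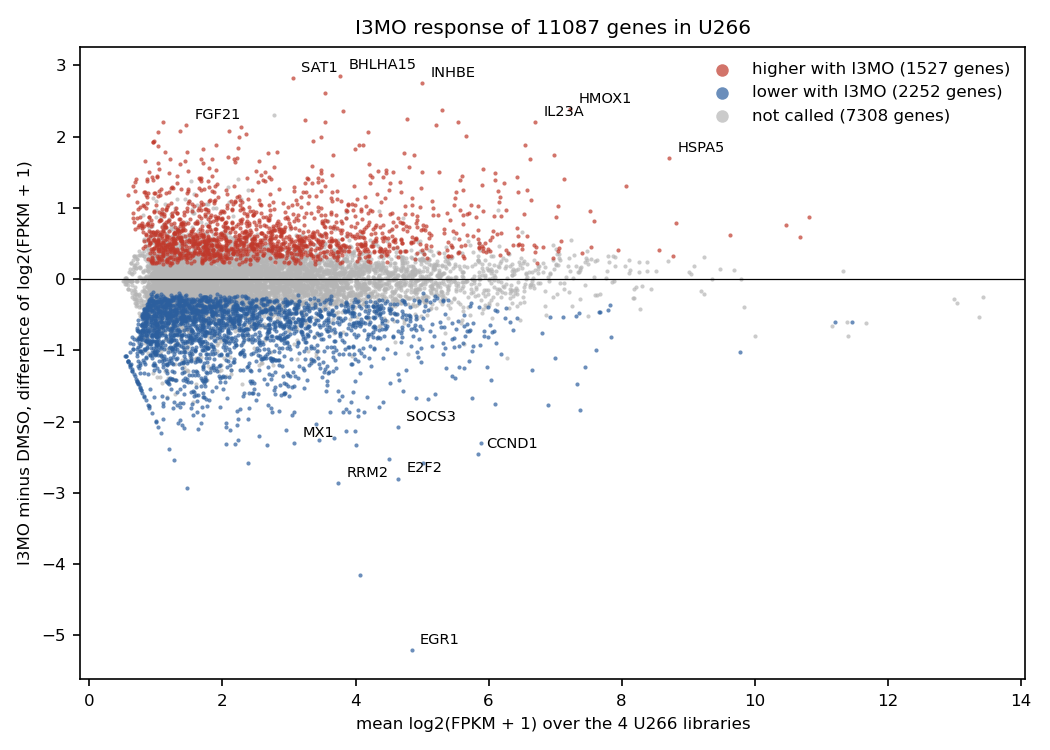
Change with I3MO in U266 (y axis, difference of log2(FPKM + 1), I3MO minus DMSO) against mean level over the 4 libraries (x axis) for the 11087 U266 genes. Red points rose and blue points fell at an adjusted p under 0.05; EGR1 lies lowest at −5.21 and BHLHA15 highest at 2.85.

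Genes of the amino acid and integrated stress response rose together. Of 35 listed ATF4 and CHOP targets 33 met the level rule, 3 of them through a single treatment group, and 29 rose against 1 that fell, with a median change of 1.36; without the second I3MO library the counts were 28 and 1. Among all U266 genes 13.8% rose and the median was −0.05. ATF4, the factor at the centre of this response, was at 400.4 and 447.6 FPKM with I3MO and 174.7 and 165.6 FPKM with DMSO. The I3MO libraries were both more than 2-fold above the DMSO libraries, and the change was 1.31 ± 0.10 (log2 ± SE; adjusted p = 1.4e-06, limma). DDIT3, which encodes CHOP, rose by 1.25 ± 0.23 on the log2 scale, with 7.29 and 7.41 FPKM under I3MO and 2.37 and 2.66 FPKM under DMSO (adjusted p = 0.0015, limma).

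Secreted hormones and feedback genes were among the ATF4 targets with large rises. INHBE, an inhibin beta chain, was at 79.9 and 84.7 FPKM with I3MO and 11.5 and 11.2 FPKM with DMSO, a change of 2.75 ± 0.16. STC2, a secreted glycoprotein, was at 30.4 and 31.4 FPKM with I3MO and 5.16 and 5.28 FPKM with DMSO. FGF21, a stress hormone that met the level rule only through the I3MO libraries, was at 5.46 and 4.21 FPKM against 0.17 and 0.44 FPKM. These 3 genes are among the 15 largest rises, a choice that required no overlap between treatments. TRIB3, a pseudokinase that restrains ATF4, was at 102.8 and 95.2 FPKM with I3MO and 21.2 and 20.4 FPKM with DMSO. CHAC1, which degrades glutathione, was at 40.8 and 32.5 FPKM with I3MO and 8.07 and 7.79 FPKM with DMSO. SESN2, a sestrin that restrains mTORC1, was at 190.4 and 168.3 FPKM with I3MO and 48.7 and 47.4 FPKM with DMSO. The changes of TRIB3, CHAC1 and SESN2 were 2.20 ± 0.14, 2.07 ± 0.29 and 1.88 ± 0.14 (adjusted p = 4.3e-07, 2.1e-04 and 1.1e-06, limma).

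Enzymes that make amino acids rose with them. ASNS, the asparagine synthetase, was at 25.2 and 36.1 FPKM with I3MO and 11.1 and 10.1 FPKM with DMSO. PSAT1 and PHGDH, enzymes of serine synthesis, rose by 1.69 and 1.45, and SHMT2, which passes serine carbon to folate in mitochondria, rose by 1.89. CTH, which makes cysteine, rose by 2.23, with 16.8 and 22.5 FPKM under I3MO against 3.06 and 3.69 FPKM under DMSO. ASS1, the argininosuccinate synthetase, lies outside the list and rose by 2.37, to 90.1 and 87.8 FPKM with I3MO against 16.7 and 16.1 FPKM with DMSO. The exceptions among the ATF4 targets were ERO1A, an ER oxidase, which fell by 0.41 (adjusted p = 0.0084, and 0.0574 without the second DMSO library, limma), and ATF3, ALDH18A1 and ALDH1L2, which were not called and had differences of 0.19, −0.09 and 0.73.

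The promoters of 3 ATF4 targets are printed because each holds the letters of a motif that ATF4 dimers bind, which most of the list does not. In the RefSeq promoter table (GRCh38.p14), each runs from 250 bases before to 50 bases after the annotated start, 300 bases in all, on the strand of the gene; FGF21 lies at chr19:48755274-48755573 (plus strand), CHAC1 at chr15:40953221-40953520 (plus strand) and ASNS at chr7:97872359-97872658 (minus strand). Capitals mark the match to TGATGNAAN, the core of the C/EBP-ATF response element that ATF4 dimers bind, searched on both strands; in FGF21 and CHAC1 the match is on the opposite strand.
FGF21: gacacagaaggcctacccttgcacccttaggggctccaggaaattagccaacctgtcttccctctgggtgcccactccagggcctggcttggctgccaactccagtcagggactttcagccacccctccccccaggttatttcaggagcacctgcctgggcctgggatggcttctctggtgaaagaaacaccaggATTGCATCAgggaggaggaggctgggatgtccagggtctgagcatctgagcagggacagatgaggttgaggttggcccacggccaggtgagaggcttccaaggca
CHAC1: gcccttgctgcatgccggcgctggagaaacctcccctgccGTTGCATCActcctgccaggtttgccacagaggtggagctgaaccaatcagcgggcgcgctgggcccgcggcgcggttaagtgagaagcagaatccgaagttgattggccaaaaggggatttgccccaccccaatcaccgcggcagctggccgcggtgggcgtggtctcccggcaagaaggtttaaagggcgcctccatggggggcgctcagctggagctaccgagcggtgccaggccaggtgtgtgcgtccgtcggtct
ASNS: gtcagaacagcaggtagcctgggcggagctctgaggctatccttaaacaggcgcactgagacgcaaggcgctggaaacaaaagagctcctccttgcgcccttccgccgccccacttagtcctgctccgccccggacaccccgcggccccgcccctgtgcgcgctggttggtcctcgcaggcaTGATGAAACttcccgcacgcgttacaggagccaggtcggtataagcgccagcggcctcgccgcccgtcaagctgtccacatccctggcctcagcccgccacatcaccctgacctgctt
The match begins 55 bases before the start in FGF21, 210 in CHAC1 and 68 in ASNS. These letters occurred in 1002 of 27305 promoters of the table (3.67%) and in 135 of the 7427 U266 genes with an entry (1.82%). They occurred in 34 of 1082 promoters of U266 genes that rose (3.14%) and in 19 of 1541 of those that fell (1.23%). Of the 25 ATF4 and CHOP targets that have an entry, 4 held them (16%).

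Amino acid transporters moved with the enzymes. Of 14 listed 11 met the level rule, 1 of them through a single treatment group. Of the 11, 8 rose and 1 fell, with a median change of 1.02. Fewer rose without the first I3MO library or either DMSO library, and more rose without the second I3MO library. The list medians in these fits were 0.91 to 1.08. SLC7A5 and SLC3A2, the light and heavy chains of the large neutral amino acid exchanger, rose by 1.41 ± 0.08 and 1.14 ± 0.14; SLC7A5 was at 233.6 and 223.6 FPKM with I3MO and 82.7 and 88.0 FPKM with DMSO. SLC6A9, a glycine transporter, rose by 1.77 ± 0.11. SLC7A11, the cystine exchanger, was at 14.8 and 4.82 FPKM with I3MO and 1.99 and 2.78 FPKM with DMSO. Its I3MO libraries differed 3-fold between them, and its change was 1.51 with both, 2.24 without the second and 0.79 without the first; the adjusted p was 0.0093 in full, 0.0729 without the first I3MO library and 0.0712 without the first DMSO library (limma). SLC7A6, an exchanger of basic amino acids, fell by 0.44, with a mean below 1 FPKM over the 4 libraries. It was not called with the 4 U266 libraries only. Of the 20 cytosolic aminoacyl-tRNA synthetases 6 rose and 2 fell, with a median of 0.29 that was 0.18 without the first I3MO library and 0.49 without the second; WARS1, SARS1 and GARS1, for tryptophan, serine and glycine, led with 1.34, 1.24 and 1.11. Without the second I3MO library 8 rose and 1 fell. Beside SESN2, the list of sestrins and mTORC1 brakes held 1 more gene that rose, DDIT4, by 1.39, and 1 that fell, DEPTOR, an mTOR inhibitor known for its high level in myeloma, by 1.60; 10 of 14 met the level rule, and 4 rose without the second I3MO library.

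ER folding genes rose as well. Of 27 listed chaperones and ER-associated degradation genes 26 met the level rule, and 19 rose against 1 that fell, with a median change of 0.89. Fewer rose when any 1 U266 library was left out, I3MO or DMSO, with list medians of 0.80 to 0.88. HSPA5, the main ER chaperone BiP, was at 617.9 and 923.7 FPKM with I3MO and 227.0 and 237.8 FPKM with DMSO, a change of 1.70 ± 0.15 (adjusted p = 5.3e-06, limma). The I3MO libraries differed from each other by more than the DMSO libraries did, and both lay above them. DNAJB9, an HSPA5 cofactor, rose by 1.76 ± 0.20, HYOU1, a nucleotide exchange factor, by 1.42 ± 0.13, and MANF, a secreted ER stress protein, by 1.46 ± 0.27. SEC61B, a subunit of the translocation channel, rose by 1.33 and EDEM1, which sorts misfolded glycoproteins, by 1.15. DERL3, a degradation factor of secretory cells, was the member that fell, at 1.18 and 0.996 FPKM with I3MO and 2.21 and 2.20 FPKM with DMSO; its change of −0.62 had an adjusted p of 0.0301 with all libraries and of 0.0592 to 0.121 (limma) when any 1 U266 library was left out. XBP1, the spliced factor of this response, was listed at 0 in the 4 libraries, which may be a failed estimate, and no level is given for it.

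HSPA5 is shown because its promoter holds the letters of the classical ER stress element, CCAAT followed by any 9 bases and CCACG, which includes a CCAAT box (RefSeq, GRCh38.p14, chr9:125241294-125241593, minus strand; capitals mark the element, which begins 66 bases before the start).
HSPA5: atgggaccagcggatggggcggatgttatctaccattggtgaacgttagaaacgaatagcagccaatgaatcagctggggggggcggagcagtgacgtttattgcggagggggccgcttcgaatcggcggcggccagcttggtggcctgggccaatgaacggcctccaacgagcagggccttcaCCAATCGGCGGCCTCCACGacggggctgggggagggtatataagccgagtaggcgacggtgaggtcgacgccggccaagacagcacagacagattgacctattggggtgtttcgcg
On both strands the element was found in 22 of 27305 promoters (0.0806%) and in 12 of the 7427 U266 genes with an entry (0.162%). It was found in 8 of 1082 promoters of genes that rose, in 0 of 1541 of genes that fell, and in 5 of the 23 ER genes with an entry (21.7%).

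DNA replication genes fell without exception. All 34 listed licensing and fork genes met the level rule, 7 of them through a single treatment group, and all 34 fell, with a median change of −1.09, where 20.3% of U266 genes fell; of the 32 with a mean of 1 FPKM or more over the 4 libraries, 32 fell. Leaving out either I3MO library left 33 called. MCM5, a subunit of the replicative helicase, was at 10.3 and 9.69 FPKM with I3MO and 36.63 and 37.95 FPKM with DMSO, a change of −1.80 ± 0.07 (adjusted p = 9.7e-09, limma). MCM2, of the same helicase, was at 14.2 and 14.7 FPKM with I3MO and 39.1 and 41.7 FPKM with DMSO, and GINS2, which activates the helicase, at 4.10 and 4.36 FPKM against 21.3 and 19.7 FPKM. In all 3 genes the treatments were well apart. UHRF1, which carries DNA methylation through replication, fell by 2.02 ± 0.10, CDC45, the partner of MCM and GINS, by 1.79 ± 0.09, and PCNA, the sliding clamp, by 1.42 ± 0.16. CDC45 met the level rule through the DMSO libraries alone. In bulk RNA, fewer cells in S phase and less of these RNAs in each cell cannot be told apart.

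Enzymes that supply nucleotides and the regulators of S phase entry fell too. Of 17 nucleotide synthesis genes 11 fell and 1 rose. RRM2, the regulated subunit of ribonucleotide reductase, was at 3.36 and 4.59 FPKM with I3MO and 35.1 and 34.8 FPKM with DMSO, a change of −2.86 ± 0.28 (adjusted p = 1.1e-05, limma). TK1, the thymidine kinase of S phase, fell by 2.13 ± 0.19. The gene that rose, CAD, which starts pyrimidine synthesis, did so by 0.32 and was not called without the first DMSO library or with either I3MO library left out (adjusted p = 0.321, 0.142 and 0.076, limma). Of 24 listed G1/S genes 20 met the level rule, none rose and 13 fell, with a median of −0.56. Of the 18 with a mean of 1 FPKM or more 12 fell. Fewer G1/S genes fell when any 1 U266 library was left out, with list medians of −0.60 to −0.55. E2F2, an activating E2F factor, was at 8.96 and 7.97 FPKM with I3MO and 62.8 and 67.0 FPKM with DMSO (−2.80 ± 0.09). CCND1, cyclin D1, was at 21.3 and 25.9 FPKM with I3MO and 130.3 and 136.5 FPKM with DMSO (−2.46 ± 0.12). Both were among the 15 largest falls, a choice that required no overlap between treatments (adjusted p = 2.4e-09 and 6.3e-08, limma). E2F1 fell by 1.66 and CDC25A, a phosphatase that activates cyclin-dependent kinases, by 1.54. Inhibitors of cyclin-dependent kinases were among those that fell: CDKN2C by 1.86 ± 0.07 and CDKN1B by 0.64 ± 0.11. CDKN1A, which encodes p21, was at 30.4 and 26.3 FPKM with I3MO and 53.2 and 53.3 FPKM with DMSO; its change of −0.89 had an adjusted p of 0.0199, and of 0.0823 without the first DMSO library, 0.0829 without the second DMSO library and 0.0966 without the second I3MO library (limma). CDK4, a partner of the D cyclins, had a difference of 0.30 and CCND2 one of 0.00, neither called.

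Mitotic and repair genes followed. Of 28 listed mitosis genes 23 met the level rule, 6 through a single treatment group, and 22 fell, with a median of −0.96. Fewer fell when any 1 U266 library was left out, I3MO or DMSO, with list medians of −0.98 to −0.92. CCNA2, cyclin A2, was at 1.62 and 1.66 FPKM with I3MO and 9.88 and 8.75 FPKM with DMSO, a change of −1.96 ± 0.11. NUSAP1, a spindle protein, fell by 1.52 ± 0.14 and CDK1, the mitotic kinase, by 1.37 ± 0.13. Of 18 homologous recombination and crosslink repair genes 12 met the level rule, 6 through the DMSO libraries alone, and 9 fell; of the 11 with a mean of 1 FPKM or more 8 fell, and of the 6 left by a filter at 5 FPKM 4 fell. EXO1, a resecting nuclease that met the rule through DMSO alone, was at 0.70 and 0.64 FPKM with I3MO and 3.33 and 3.70 FPKM with DMSO. Among 15 core histone genes that met the rule 5 fell, or 3 without the first I3MO or the first DMSO library, and among 4 linker histone genes 3 fell; the near-identical copies of these genes can share reads. H1-4 was at 1.24 and 1.02 FPKM with I3MO and 13.3 and 10.3 FPKM with DMSO, a change of −2.58 ± 0.41. MYBL2, a transcription factor of the G2 genes, was at 25.5 and 25.4 FPKM with I3MO and 127.9 and 131.7 FPKM with DMSO, a change of −2.30 ± 0.08.

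Promoters of E2F2 and GINS2 are shown because both genes fell far and both windows hold the letters of an E2F motif. E2F2 lies at chr1:23531184-23531483 and GINS2 at chr16:85688905-85689204, both on the minus strand (RefSeq, GRCh38.p14). Capitals mark a match to TTTCCCGC or TTTGGCGC, searched on both strands; the match in GINS2 is on the opposite strand.
E2F2: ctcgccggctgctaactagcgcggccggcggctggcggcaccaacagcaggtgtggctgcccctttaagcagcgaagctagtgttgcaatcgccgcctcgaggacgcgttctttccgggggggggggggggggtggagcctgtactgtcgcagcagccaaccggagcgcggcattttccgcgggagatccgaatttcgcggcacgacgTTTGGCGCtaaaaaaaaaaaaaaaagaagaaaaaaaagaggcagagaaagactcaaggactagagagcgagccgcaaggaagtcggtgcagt
GINS2: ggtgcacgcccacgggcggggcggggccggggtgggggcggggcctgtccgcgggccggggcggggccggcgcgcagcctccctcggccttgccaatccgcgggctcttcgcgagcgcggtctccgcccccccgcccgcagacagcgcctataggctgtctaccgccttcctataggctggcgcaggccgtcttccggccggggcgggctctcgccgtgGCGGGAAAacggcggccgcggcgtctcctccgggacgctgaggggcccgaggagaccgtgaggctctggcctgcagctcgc
The match begins 42 bases before the start in E2F2 and 31 in GINS2. Either form was found in 631 of 27305 promoters (2.31%) and in 312 of the 7427 U266 genes with an entry (4.2%). It was found in 20 of 1082 promoters of genes that rose (1.85%), in 101 of 1541 of genes that fell (6.55%) and in 16 of 30 replication genes (53.3%). TTTGAA, the core of the cell cycle homology region of mitotic genes, was found on either strand in 4212 of 27305 promoters (15.4%), in 655 of the 7427 U266 promoters (8.82%) in 73 of 1082 of genes that rose (6.75%), in 193 of 1541 of genes that fell (12.5%), in 12 of 19 mitosis genes (63.2%) and in 5 of 11 MHC class II genes (45.5%).

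**Figure D3:**
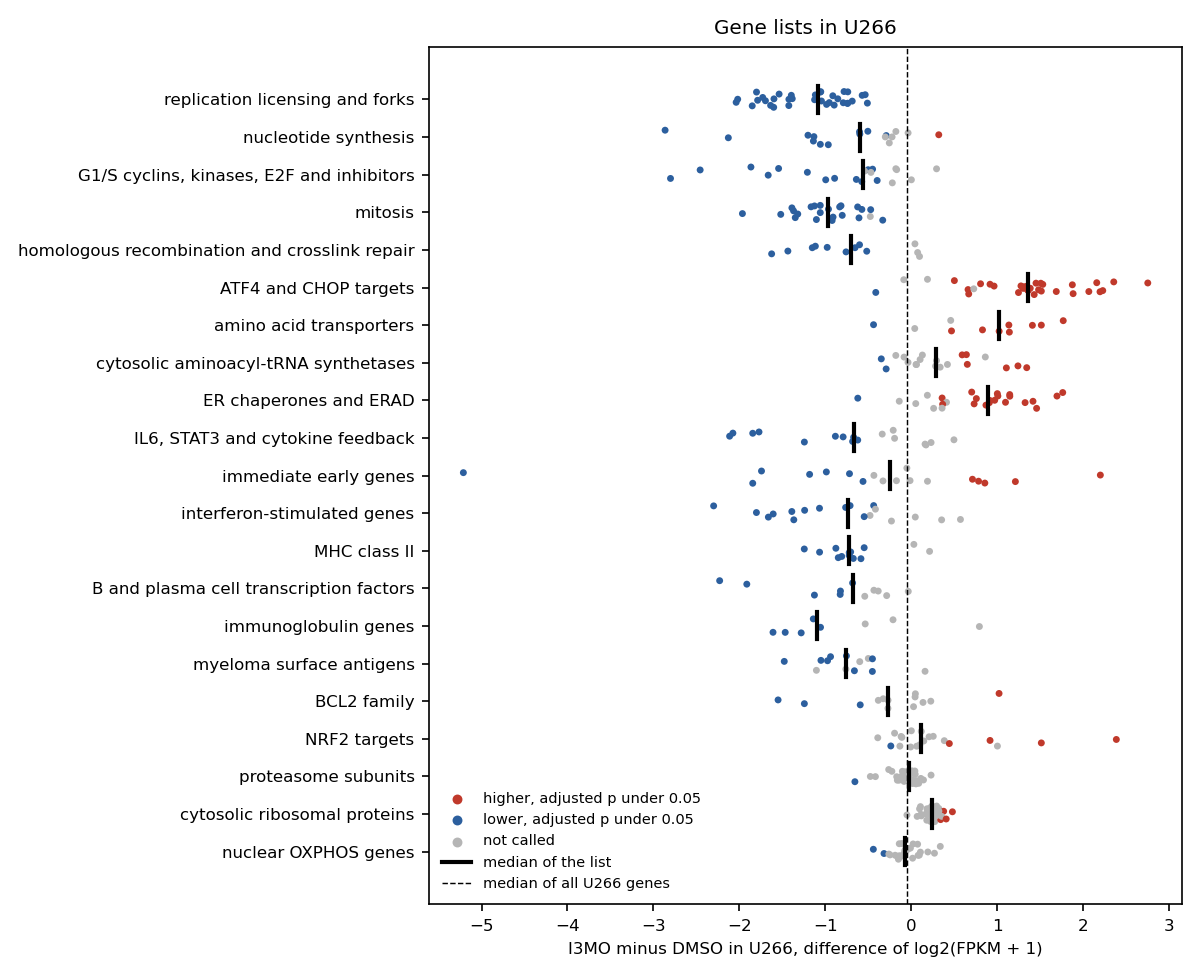
Change with I3MO in U266 (x axis, difference of log2(FPKM + 1), I3MO minus DMSO) for the genes of 21 lists (y axis). Each point is a gene that met the level rule, red or blue where called; black bars are list medians and the dashed line is the median of all U266 genes, −0.05. The ATF4 list has its median at 1.36 and the replication list at −1.09.

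EGR1 had the largest fall of all U266 genes, within a list of immediate early genes that went both ways. EGR1, a zinc finger factor induced by serum and by ERK signalling, was at 4.26 and 3.23 FPKM with I3MO and 169 and 179 FPKM with DMSO. The change was −5.21 ± 0.68 (adjusted p = 1.2e-04, limma), and the choice of the largest falls required no overlap between treatments. The immediate early list as a whole was split: of 23 listed 18 met the level rule, 5 through a single treatment group, and 5 rose while 7 fell; of the 16 with a mean of 1 FPKM or more over the 4 libraries 3 rose and 7 fell, and of the 13 left by a filter at 5 FPKM 1 rose and 6 fell. FOS, which met the level rule only through the DMSO libraries, was at 0.46 and 0.45 FPKM with I3MO and 3.89 and 3.84 FPKM with DMSO, JUNB at 97.0 and 77.6 FPKM against 319.5 and 309.0 FPKM, and IER2 fell by 1.18. On the other side, FOSL2, a FOS relative, was at 22.5 and 25.5 FPKM with I3MO and 4.44 and 4.41 FPKM with DMSO, a change of 2.20 ± 0.12. The orphan nuclear receptors NR4A2, NR4A3 and NR4A1 met the level rule only through the I3MO libraries and rose by 1.21, 0.86 and 0.71, with levels of 1.14 to 2.26 FPKM in the I3MO libraries and 0.16 to 0.35 FPKM in the DMSO libraries. Of 9 MAP kinase phosphatases and brakes 2 rose and 1 fell, each of the 3 through the level of a single treatment group, with a median of 0.01. DUSP6, a phosphatase that acts on ERK, fell by 0.79 ± 0.11, to 0.24 and 0.38 FPKM with I3MO against 1.29 and 1.24 FPKM with DMSO. SPRY1, a feedback inhibitor of receptor kinases, rose by 0.55 ± 0.10, and DUSP4, another phosphatase, by 1.04; the adjusted p of DUSP4 was 0.0199, and 0.0769, 0.0886 and 0.0932 without the first DMSO, the second DMSO and the second I3MO library (limma).

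The promoter of EGR1 is shown because the gene had the largest fall and its window holds CArG boxes, the core of the serum response element (RefSeq, GRCh38.p14, chr5:138465229-138465528, plus strand). Capitals mark the CArG boxes, CC, any 6 bases of A or T, and GG, searched on both strands; they begin 105 and 83 bases before the start.
EGR1: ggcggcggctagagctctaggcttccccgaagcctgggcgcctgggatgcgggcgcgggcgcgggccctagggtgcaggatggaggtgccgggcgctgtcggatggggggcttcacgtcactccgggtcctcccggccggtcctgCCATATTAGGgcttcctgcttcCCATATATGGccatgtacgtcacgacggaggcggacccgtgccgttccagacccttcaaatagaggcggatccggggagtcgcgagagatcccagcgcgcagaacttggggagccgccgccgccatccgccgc
A CArG box was found in 351 of 27305 promoters (1.29%) and in 76 of the 7427 U266 genes with an entry (1.02%). It was found in 9 of 1082 of genes that rose (0.832%) and in 22 of 1541 of genes that fell (1.43%).

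STAT3 and several genes that it induces fell. STAT3, the transcription factor of IL6 signalling, was at 5.63 and 7.25 FPKM with I3MO and 11.2 and 12.4 FPKM with DMSO, a change of −0.79 ± 0.11 with no overlap between treatments (adjusted p = 2.2e-04, limma). SOCS3, the feedback inhibitor induced by STAT3, was at 10.8 and 11.3 FPKM with I3MO and 51.3 and 48.5 FPKM with DMSO, a change of −2.08 ± 0.30. PIM1 and PIM2, survival kinases of the same pathway, fell by 2.11 ± 0.21 and 1.77 ± 0.11; PIM2 was at 67.2 and 59.4 FPKM with I3MO and 216.6 and 219.6 FPKM with DMSO. In the whole list 17 of 22 genes met the level rule, 2 of them through the DMSO libraries alone, none rose and 10 fell, with a median of −0.67; of the 15 with a mean of 1 FPKM or more 8 fell. IL6 was one of the 2, at 0.46 and 0.43 FPKM with I3MO and 1.19 and 1.25 FPKM with DMSO. The receptor genes IL6R and IL6ST had differences of −0.19 and 0.16 and were not called, and JAK2 was below the level rule.

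Genes of the interferon response and of antigen presentation fell. Of 23 interferon-stimulated genes 18 met the level rule, 3 of them through a single treatment group. None rose and 12 fell, with a median of −0.74, and all 18 had a mean of 1 FPKM or more over the 4 libraries. Fewer fell without the first DMSO, the second DMSO or the second I3MO library, with list medians of −0.67, −0.80 and −0.65. With the 4 U266 libraries only, 1 rose and 11 fell. MX1, an antiviral GTPase, was at 2.85 and 2.77 FPKM with I3MO and 17.2 and 18.3 FPKM with DMSO, a change of −2.30 ± 0.07 (adjusted p = 1.1e-09, limma). IFIT1, which binds foreign RNA, met the level rule through the DMSO libraries alone and fell by 1.80 ± 0.14. IRF7, a factor that induces interferon genes, fell by 1.37 ± 0.08. USP18, the protease that removes ISG15 and damps interferon signalling, was at 5.74 and 6.68 FPKM with I3MO and 37.6 and 33.1 FPKM with DMSO. The list was not uniform: the differences were 0.57 for OAS1, 0.35 for OAS3 and 0.05 for STAT2, none of them called. Of 16 listed MHC class II genes 13 met the level rule and 11 fell, with a median of −0.72; of the 12 with a mean of 1 FPKM or more 10 fell. CIITA, their master regulator, met the level rule through the DMSO libraries alone. It was at 0.43 and 0.24 FPKM with I3MO and 1.53 and 1.38 FPKM with DMSO (−0.88 ± 0.10). HLA-DRA was at 22.4 and 29.4 FPKM with I3MO and 63.0 and 61.2 FPKM with DMSO, and CD74, the invariant chain, at 62.3 and 64.3 FPKM against 101.4 and 108.6 FPKM. HLA-DRA fell by 1.24 and CD74 by 0.72; reads of HLA-DRB1 and HLA-DRB5 may be shared between these close copies. In class I presentation 5 of 14 genes fell and none rose: TAP1, a peptide transporter, fell by 0.80, while HLA-B and HLA-C had differences of −0.23 and −0.19 and were not called. Of the class I genes 3 fell without the second I3MO library, 3 without the first DMSO library and 2 without the second DMSO library.

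MX1 is shown with the letters of an interferon-stimulated response element, since 10 of 13 promoters of the interferon list hold them (RefSeq, GRCh38.p14, chr21:41420308-41420607, plus strand). Capitals mark GAAA, any 2 bases and GAAA, searched on both strands, which begins 11 bases after the start.
MX1: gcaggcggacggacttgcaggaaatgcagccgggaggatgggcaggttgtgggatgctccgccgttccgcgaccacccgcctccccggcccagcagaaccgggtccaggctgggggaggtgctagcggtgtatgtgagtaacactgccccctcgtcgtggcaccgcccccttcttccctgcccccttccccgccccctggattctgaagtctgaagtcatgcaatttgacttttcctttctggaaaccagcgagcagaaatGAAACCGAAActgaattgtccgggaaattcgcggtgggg
The letters were found in 996 of 27305 promoters (3.65%) and in 208 of the 7427 U266 genes with an entry (2.8%). They were found in 29 of 1082 of genes that rose (2.68%) and in 61 of 1541 of genes that fell (3.96%). Of the 13 interferon-stimulated genes with an entry, 10 held them (76.9%).

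Genes of B and plasma cell identity fell in part. Of 19 transcription factors of the lineage 11 met the level rule, 3 through a single treatment group, and 6 fell with none higher. POU2AF1, an octamer coactivator, was at 4.90 and 4.89 FPKM with I3MO and 25.0 and 28.4 FPKM with DMSO. Its partner POU2F2, which met the level rule through the DMSO libraries alone, was at 0.61 and 0.78 FPKM against 5.25 and 5.48 FPKM. They fell by 2.23 ± 0.28 and 1.91 ± 0.22 (adjusted p = 9.6e-05 and 4.9e-05, limma). IKZF3, a factor degraded by the immunomodulatory drugs used in myeloma, fell by 1.13. IRF4 had a difference of −0.03 ± 0.33, and PRDM1, which drives plasma cell differentiation, one of −0.54 ± 0.20, neither called. IGLC2, the most abundant lambda gene of these cells, was at 9033 and 8608 FPKM with I3MO and 12430 and 13140 FPKM with DMSO; this difference of −0.53 was not called, nor was that of −0.21 for IGHE. Of the 8 immunoglobulin genes that met the level rule 5 fell, with a median of −1.10. JCHAIN, which joins polymeric antibodies, was at 10.7 and 15.2 FPKM with I3MO and 36.2 and 37.9 FPKM with DMSO; its change of −1.47 had an adjusted p of 0.0095, and of 0.0658 without the first I3MO library and 0.0532 without the second DMSO library (limma). The alpha and lambda constant genes have near-identical copies, and their values are uncertain for that reason.

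Surface proteins and receptors for homing were also lower. Of 21 surface antigens 13 met the level rule and 8 fell, with a median of −0.75. SDC1, the plasma cell marker CD138, was at 99.95 and 91.7 FPKM with I3MO and 268.8 and 267.9 FPKM with DMSO, a change of −1.48 ± 0.24 (adjusted p = 5.3e-04, limma). TNFRSF17, the therapy target BCMA, was at 47.9 and 55.9 FPKM with I3MO and 115.5 and 109.1 FPKM with DMSO; the libraries did not overlap, but the difference of −1.10 ± 0.41 was not called (adjusted p = 0.0708, limma). Of 19 homing and adhesion genes 14 met the level rule and 7 fell. CCR2, a chemokine receptor, was at 2.07 and 1.61 FPKM with I3MO and 13.7 and 12.7 FPKM with DMSO, and its adjusted p of 0.012 became 0.0629 without the first DMSO library, 0.0528 without the second DMSO library and 0.0572 without the second I3MO library (limma). ITGA4, an integrin chain that binds VCAM1, fell by 1.83 ± 0.28 and CD44, the hyaluronan receptor, by 1.05 ± 0.13. ST6GAL1, which adds terminal sialic acid, was at 7.31 and 9.69 FPKM with I3MO and 53.68 and 53.05 FPKM with DMSO, a change of −2.53 ± 0.25.

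MCL1 fell and its relative BCL2L1 was not called. Of 13 BCL2 family genes that met the level rule 1 rose and 3 fell, a share near that of all U266 genes (13.8% rose and 20.3% fell). MCL1, a survival protein on which myeloma cells depend, was at 27.6 and 35.6 FPKM with I3MO and 76.3 and 74.9 FPKM with DMSO, a change of −1.24 ± 0.14 (adjusted p = 4.1e-05, limma). BCL2L1, its relative, was at 32.4 and 30.9 FPKM with I3MO and 30.9 and 30.2 FPKM with DMSO, a difference of 0.05 ± 0.21. The BH3-only genes, which promote death, went both ways: HRK rose by 1.02 ± 0.11 and BMF fell by 1.55 ± 0.08. Of 17 p53 targets that met the rule 9 fell and 1 rose, and without the second I3MO library 5 fell and 1 rose. MDM2, the p53 ligase, fell by 0.98 ± 0.14 and BTG2, a growth inhibitor, by 1.15 ± 0.20. TNFRSF10B, a death receptor that CHOP also induces, was the p53 target that rose, by 0.49; its adjusted p was 0.0403, and 0.0723 to 0.166 when any 1 U266 library was left out (limma). MYCL, a MYC relative, fell to 36.98 and 37.0 FPKM with I3MO, against 77.1 and 73.4 FPKM with DMSO (adjusted p = 5.7e-06, limma), while MYC itself was below the level rule at 0.65 and 0.72 FPKM with DMSO.

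Few targets of the aryl hydrocarbon receptor and of beta-catenin met the level rule. The aryl hydrocarbon receptor targets CYP1A1, AHRR and TIPARP were below the level rule in both treatments. CYP1A1 was at 0.24 and 0.14 FPKM with I3MO and 0.19 and 0.17 FPKM with DMSO, AHRR at 0.53 and 0.47 FPKM against 0.45 and 0.39 FPKM, and TIPARP at 0.50 and 0.41 FPKM against 0.48 and 0.58 FPKM. None of the 3 was called. Of 13 genes listed for this receptor 4 met the level rule and 2 rose, SLC7A5 and NFE2L2; NFE2L2, which encodes NRF2, rose by 0.38 and was not called with either DMSO library left out or without the first I3MO library (adjusted p = 0.267, 0.0588 and 0.223, limma). AXIN2, a target of beta-catenin, was at 0.24 and 0.37 FPKM with I3MO and 0.13 and 0.12 FPKM with DMSO, below the level of the test. Of the 8 GSK3 and WNT genes that met the rule, AXIN1, a scaffold of the destruction complex, rose by 0.39, and CCND1, DKK1, a secreted WNT inhibitor, and RNF43, which removes WNT receptors, fell by 2.46, 0.80 and 0.32. Of 12 elongation kinase genes that met the rule 3 rose and 2 fell; 1 rose without the first DMSO library and 4 fell without the first I3MO library. HEXIM1, which holds the elongation factor P-TEFb inactive, fell by 0.93 ± 0.17, and CDK9, the kinase of P-TEFb, rose by 0.43 ± 0.08. 7SK, the RNA that binds HEXIM1, was at 114 and 89.1 FPKM with I3MO and 24.2 and 24.3 FPKM with DMSO, or about 555 and 483 fragments against 110 and 124. Its change of 2.01 ± 0.49 had an adjusted p of 0.0091, and of 0.0513 without the first I3MO library (limma); other copies of 7SK in the genome can share its reads.

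Oxidative stress and protein breakdown genes did not move as groups. Of 20 NRF2 targets that met the level rule 4 rose and 1 fell, and with either I3MO library left out 2 rose and none fell; without the first DMSO library 2 rose. HMOX1, which degrades heme, was at 343 FPKM in both I3MO libraries and at 64.1 and 65.3 FPKM in the DMSO libraries. The treatments were far apart, and the change of 2.39 ± 0.65 had an adjusted p of 0.0163 with all libraries and of 0.057 to 0.0732 when any 1 U266 library was left out (limma). FTH1, the heavy chain of ferritin, was at 119 and 135 FPKM with I3MO and 66.3 and 67.1 FPKM with DMSO; its change of 0.92 had an adjusted p of 0.0085, and of 0.0513 without the second I3MO library (limma). NQO1, another NRF2 target, was at 4.42 and 4.73 FPKM with I3MO and 5.56 and 5.19 FPKM with DMSO and was not called. Among 30 proteasome genes PSMC3, a base ATPase, fell by 0.65 and the other 29 were not called, with a median of −0.02. PSMB5, the subunit that bortezomib binds, had a difference of 0.04 ± 0.17. USP7, a deubiquitinase that stabilises MDM2, was at 5.01 and 5.94 FPKM with I3MO and 8.68 and 8.83 FPKM with DMSO, a fall of 0.59 ± 0.09 (adjusted p = 2.5e-04, limma). Of 15 heat shock chaperones that met the rule HSPB1 fell by 0.38 and 14 were not called; HSPB1 was not called either without the first DMSO, the second DMSO or the second I3MO library (adjusted p = 0.0605, 0.0937 and 0.12, limma).

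The metabolic and translation lists varied in how many genes were called, beside 34.1% of all U266 genes (13.8% higher and 20.3% lower). Of 30 cytosolic ribosomal protein genes 4 rose and none fell, with a median of 0.24, and 0 rose with either DMSO library left out; RPL24 rose by 0.48 and RPS16 by 0.41. RPL24 was not called without the first DMSO, the second DMSO or the second I3MO library (adjusted p = 0.103, 0.179 and 0.214, limma), nor RPS16 without the first DMSO, the second DMSO or the first I3MO library (adjusted p = 0.0904, 0.189 and 0.207, limma). Of 27 nuclear genes of oxidative phosphorylation 2 fell, both of complex I, and without the second I3MO library 3 fell; of the 13 mitochondrially encoded messages 3 fell with a median of −0.60, and 1 fell without the second I3MO or the second DMSO library. Of 23 glycolysis and hypoxia genes 10 fell and 2 rose, with a median of −0.25, or −0.40 without the second I3MO library: LDHA, which makes lactate, fell by 0.97 and NDRG1, a hypoxia target, by 1.28, while VEGFA, which ATF4 also induces, rose to 5.96 and 6.11 FPKM with I3MO, against 2.35 and 2.20 FPKM with DMSO (adjusted p = 5.3e-07, limma). Of 21 sterol genes 7 fell and 1 rose, and 4 fell with either I3MO library left out and 3 with either DMSO library left out; ACAT2, which joins acetyl groups, fell by 0.95. ELOVL5, which lengthens polyunsaturated fatty acids, fell by 1.12, and GAS5, a snoRNA host gene, rose by 0.83. In polyamine metabolism 5 of 11 genes rose and 2 fell. SAT1, the enzyme that acetylates spermine and spermidine for export, was at 19.5 and 22.7 FPKM with I3MO and 2.04 and 2.21 FPKM with DMSO, a change of 2.82 ± 0.36 (adjusted p = 9.4e-05, limma). ODC1, the first enzyme of the pathway, had a difference of −0.37 and was not called. TXNIP, a glucose sensor, fell by 1.37 ± 0.26, and MT2A, a metallothionein, rose by 1.52 ± 0.19.

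The 15 largest rises were, in order, BHLHA15, SAT1, INHBE, SYTL3, HMOX1, ASS1, STC2, TESC, CTH, FOSL2, IL23A, TRIB3, CHPF, FGF21 and C5AR1. BHLHA15, the secretory cell factor MIST1, was at 36.1 and 35.0 FPKM with I3MO and 3.73 and 4.40 FPKM with DMSO, a change of 2.85 ± 0.34 (adjusted p = 6.3e-05, limma). SYTL3, a vesicle traffic protein, was at 26.9 and 28.7 FPKM with I3MO and 3.65 and 3.73 FPKM with DMSO. IL23A, the p19 subunit of interleukin 23, was at 216 and 227 FPKM with I3MO and 48.6 and 46.3 FPKM with DMSO. In each of these the 2 libraries of a treatment were close, and the choice of genes required no overlap between treatments. C5AR1, the receptor of complement C5a, rose to 7.82 and 10.8 FPKM with I3MO against 1.35 and 1.30 FPKM with DMSO, and TESC, a calcium-binding protein, to 61.71 and 55.57 FPKM against 12.01 and 11.13 FPKM.

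The 15 largest falls were EGR1, IGKV3OR2-268, RNA5SP69, RRM2, E2F2, UBALD2, H1-4, MIR4261, ST6GAL1, CCND1, USP18, CCR2, MIR25, KRT25 and MYBL2. UBALD2 was at 12.39 and 11.98 FPKM with I3MO and 80.1 and 76.4 FPKM with DMSO, and KRT25, a keratin, at 0.94 and 1.14 FPKM against 10.1 and 8.22 FPKM. Several of the others are short or repeated genes whose values rest on few or shared fragments. RNA5SP69, a 5S ribosomal pseudogene, and MIR4261 were listed at 0 in both I3MO libraries and at 8.77 and 5.02 FPKM and 5.10 and 4.54 FPKM in the DMSO libraries. Both met the level rule through the DMSO libraries alone. The call of MIR4261 had an adjusted p of 0.0098, and of 0.0558 without the first DMSO library (limma). MIR25, whose gene lies within an intron of the replication gene MCM7, was at 2.45 and 0 FPKM with I3MO and 9.63 and 7.02 FPKM with DMSO; its change of −2.31 was −1.42 without the second I3MO library and −3.21 without the first. IGKV3OR2-268, a kappa variable orphon with near-identical copies, was at 2.15 and 4.03 FPKM with I3MO and 68.7 and 70.7 FPKM with DMSO. MCM7 itself fell by 1.70, and the libraries do not separate the short RNA from its host.

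**Figure D4:**
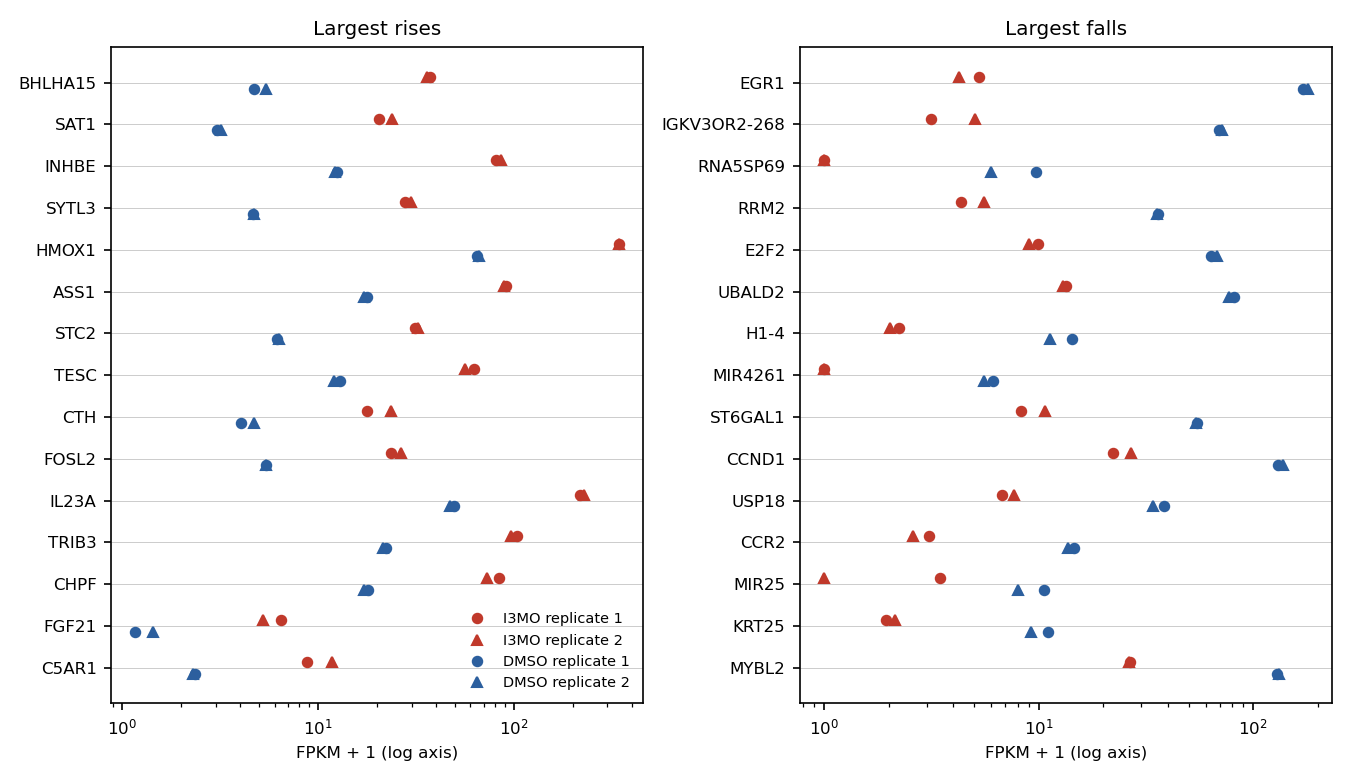
FPKM + 1 on a log axis (x) of the 15 largest rises (left) and the 15 largest falls (right) in U266. Red symbols are I3MO libraries and blue symbols DMSO libraries, with circles for replicate 1 and triangles for replicate 2; for every gene shown the treatments do not overlap, as the choice of genes required.

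The response of U266 was set against the mean response of ARP1 and RPMI8226, which received the same dose and have their own DMSO libraries. The difference of responses was called for 3197 of 15687 genes (20.4%), 1218 higher in U266 (7.76%) and 1979 lower (12.6%). Of the 11087 U266 genes 954 were called higher (8.6%) and 1677 lower (15.1%). Without the first DMSO library of U266 2060 genes were called and without the second 2095. Of the 3197 calls 38.1% were higher in U266, but 53.1% of the calls (1689 higher and 1491 lower) were after median-ratio scaling of the libraries, so the balance of directions depends on the scaling. The list of replication genes differed most in count: the U266 response was lower for 33 of 34. The list medians were −1.09 in U266, −0.46 in ARP1 and −0.21 in RPMI8226. In ANBL6BR and ANBL6, which received 5 µM and did not enter this comparison, they were −0.80 and −0.12. A low median was thus not particular to U266. For ATF4 and CHOP targets the U266 response was higher for 17 of 33 and lower for 1, and the medians were 1.36 in U266, 0.78 in ARP1 and 0.49 in RPMI8226. The ER list differed little, with 2 genes higher and 1 lower in U266 of 26, and medians of 0.89, 0.45 and 0.63 in U266, ARP1 and RPMI8226.

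The response of some genes was larger in U266 than the mean of the other lines. The response of SAT1 was 2.82 in U266, 0.00 in ARP1 and −0.87 in RPMI8226, and that of SYTL3 was 2.62, 0.49 and −0.01 in the same lines. For IL23A it was 2.20 in U266, 0.19 in ARP1 and −0.19 in RPMI8226, and for FOSL2 2.20, 0.33 and 0.06. For these 4 genes the difference of responses was at least 2.00 on the log2 scale (adjusted p = 3.2e-04, 1.0e-07, 4.3e-06 and 3.4e-06, limma). On the lower side, EGR1 had responses of −5.21 in U266, 1.07 in ARP1 and −0.53 in RPMI8226. CCND1 had responses of −2.46 in U266, −0.06 in ARP1 and 0.13 in RPMI8226, MX1 of −2.30, 0.00 and −0.53, SOCS3 of −2.08, −0.07 and 0.12, and MCL1 of −1.24, −0.04 and 0.01, in the same order of lines. These 5 genes were lower in U266 in the test of the difference (adjusted p = 7.6e-04, 7.4e-07, 2.7e-08, 0.0019 and 4.4e-04, limma). In the IL6 and STAT3 list 10 of 17 genes had a lower response in U266 and 1 a higher one, and in the interferon list 9 of 18 were lower and 1 higher.

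A few genes had a lower response in the other lines or a mixed one. CD74 had responses of −0.72 in U266, −2.04 in ARP1 and −0.76 in RPMI8226, and the difference of 0.68 was called (adjusted p = 0.0181, limma). CDKN1A had responses of −0.89 in U266, 1.65 in ARP1 and −0.82 in RPMI8226. Its difference of −1.31 from the mean of the other lines was called (adjusted p = 0.0107, limma), and that mean joins a positive and a negative response. For CHAC1, ASNS and HMOX1 the difference of responses was not called: it was 0.35 ± 0.36, 0.05 ± 0.16 and 1.43 ± 0.80 (± SE), with adjusted p-values of 0.533, 0.88 and 0.234 (limma).

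**Figure D5:**
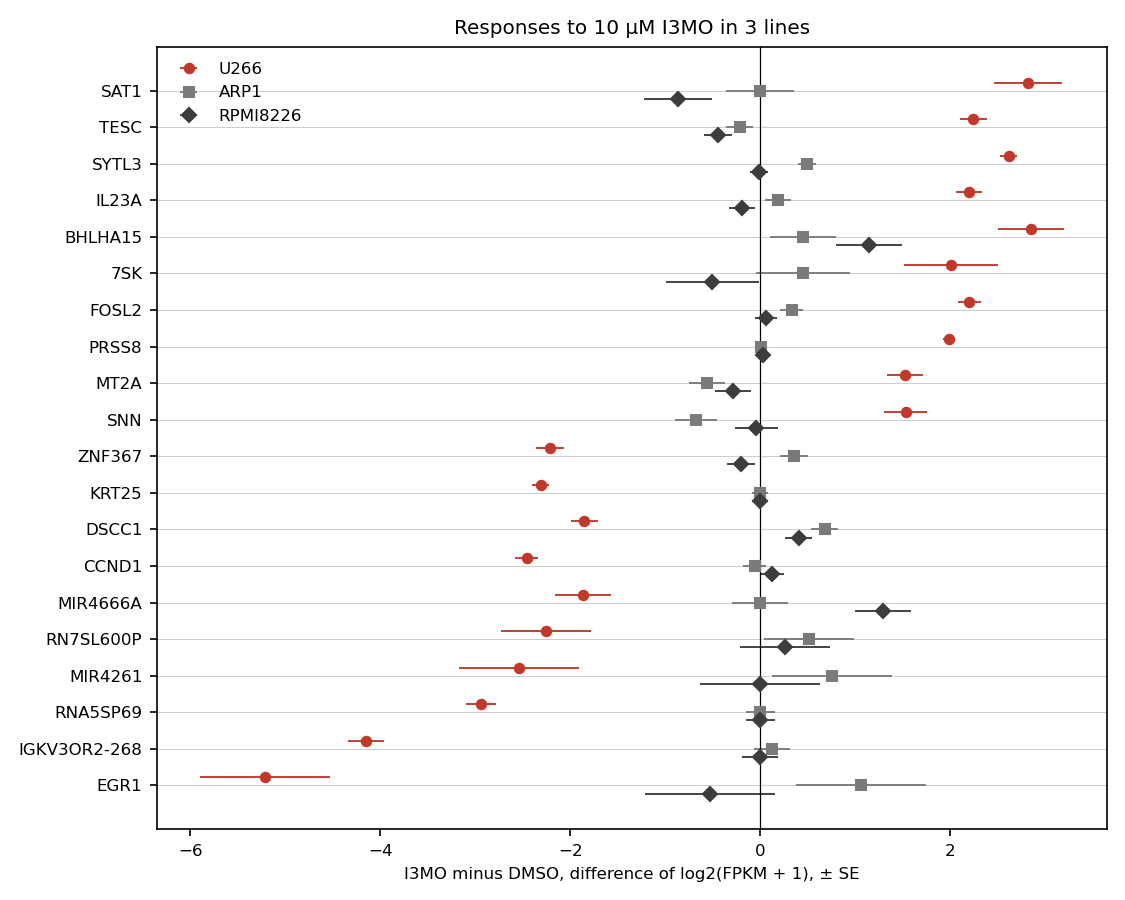
Change with 10 µM I3MO (x axis, difference of log2(FPKM + 1) ± SE, I3MO minus DMSO) in U266, ARP1 and RPMI8226 for the 10 largest positive and 10 largest negative differences of responses (y axis). The U266 points run from −5.21 for EGR1 to 2.85 for BHLHA15, and the points of the other lines lie between −0.87 and 1.29.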

How the data were processed

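RNA levels were measured by RNA-seq in 20 libraries of 5 myeloma models. The authors deposited FPKM per gene; reads were handled with Trimmomatic (versions 0.32 and 0.36 are named), STAR and SAMtools on hg38, per the submitters' processing notes. The tool that computed FPKM and the strand setting are not given in the sources used here, so overlapping genes on opposite strands cannot be told apart. The joint table was used, which equals the 20 single-library files. FPKM are not counts, so no count test was run. In single-exon genes 86.2% to 94.4% of low values were whole fragments within 0.02, which gave totals of 12090854 to 20282516 fragments; 3 fragments equal 0.148 to 0.248 FPKM in a gene of 1 kb, for counting error only. The number of libraries, 2 a group, limits the precision.

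limma 3.58.1 (R 4.3.3) was fitted with an intensity trend to log2(FPKM + 1), with a mean per group. The full fit used 1 variance per gene for all 20 libraries, so its SE does not describe the U266 replicates alone. It was run on simulated data with independent noise per gene and library. Those data held no library-wide difference like that of the second I3MO library, so they do not test for its effect. The fit covered the 15687 genes with 1 FPKM or more in 2 or more of 20 libraries. All tests were two-sided, and p-values were adjusted by Benjamini-Hochberg over these genes. A fold change on the log2(FPKM + 1) scale understates the change of low genes. Gene names, types and positions came from GENCODE release 29 and promoters from RefSeq.

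The level rule, the 44 gene lists and the 8 marker lists were chosen with earlier results of these data known. Genes are named by a rule: the 15 largest rises and 15 largest falls and the 10 largest differences of responses in each direction (called, with a symbol and 4 FPKM or more on average in the higher group, the rises and falls also with no overlap between treatments), the 4 members of each list with the smallest p, and 30 set genes; other list members were chosen after their values were seen. Same-numbered libraries deviated with correlations of −0.11 to 0.03 across genes, so the replicate numbers were not taken as pairs. Alternatives changed the pseudocount, filter, scaling, gene set, libraries, variance prior and replicate block.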

Additional observations from a re-analysis of the deposited data

Results flagged for a closer look

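The genes below are those whose response in U266 differed from the mean response of ARP1 and RPMI8226 by the test of the difference itself, at an adjusted p under 0.05 (limma). In all 3197 genes did so. All values are differences on the log2(FPKM + 1) scale, U266 minus the other lines, and no explanation was tested. Among the largest positive differences, SAT1 had 3.25, TESC 2.57, SYTL3 2.38, IL23A 2.20, BHLHA15 2.06, 7SK 2.03, FOSL2 2.00, PRSS8 1.96, MT2A 1.95 and SNN 1.89. PRSS8 encodes a membrane-anchored serine protease and was at 8.31 and 8.71 FPKM with I3MO and 1.35 and 1.44 FPKM with DMSO in U266.

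Among the largest negative differences, EGR1 had −5.48, IGKV3OR2-268 −4.21, RNA5SP69 −2.94, MIR4261 −2.92, RN7SL600P −2.64, MIR4666A −2.51, CCND1 −2.49, DSCC1 −2.39, KRT25 −2.31 and ZNF367 −2.29. DSCC1, which loads the sliding clamp for sister chromatid cohesion, had responses of −1.85 in U266, 0.68 in ARP1 and 0.41 in RPMI8226. Of these 10 genes, 5 are pseudogenes, short RNAs or an orphon; MIR4666A was at 0 and 1.56 FPKM with I3MO and 5.59 and 4.15 FPKM with DMSO in U266, and RN7SL600P at 3.65 and 0 FPKM against 9.02 and 9.56 FPKM. Without the second I3MO library the difference of RN7SL600P was −1.53, and without the first that of MIR4666A was −1.83. In U266 alone the change of RN7SL600P was −2.26, or −1.15 without the second I3MO library, and that of MIR4666A −1.86, or −1.18 without the first.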

How the results depend on the processing

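The counts of genes called varied with the genes and libraries that entered the fit. With a filter at 5 FPKM, 1021 genes rose, 1397 fell and 1751 had a different response from ARP1 and RPMI8226, over 7005 genes tested. With the 4 U266 libraries only, 719 rose and 1120 fell. With the replicate block, 1319 rose, 2062 fell and 2061 differed; the replicate numbers share only a number. Leaving out 1 U266 library at a time gave 1075 to 1877 rises, 1739 to 2673 falls and 2060 to 4055 differences; the lowest counts came without the second DMSO library (1075 rises, 2095 differences) and without the first (1739 falls, 2060 differences). Without any filter 1981 rose and 3003 fell over 44284 genes. With median-ratio scaling 1794 rose and 2206 fell. Of the 231 named genes with a test, none reversed a call; 231 held their call with a robust variance prior, 225 with median-ratio scaling, 206 with either I3MO library left out, 202 without the second and 200 without the first DMSO library, and 181 of 227 with the 4 U266 libraries only. The cause of these moves was not tested; leaving out a library lowered some counts and raised others. Short genes rest on few fragments: 7SK had 110 and RN7SL600P 37 in the first DMSO library.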

Other observations

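Several gene groups of U266 outside the comparisons above were measured with the same limma fit. Of 17 NF-kB regulators that met the level rule 2 rose and 2 fell, no larger shares than among all U266 genes (13.8% rose and 20.3% fell); 4 fell without the first I3MO library, 1 fell without the second, and 1 rose and 1 fell without the second DMSO library. TRAF1, an adaptor induced by NF-kB, was at 8.54 and 7.93 FPKM with I3MO and 4.83 and 4.51 FPKM with DMSO, a change of 0.70 ± 0.07, and CCL3, a chemokine of myeloma cells, was at 28.7 and 27.3 FPKM against 58.4 and 52.7 FPKM, a change of −0.96 ± 0.10. Of 16 autophagy and lysosome genes 4 rose and none fell; 1 rose without the second I3MO library, 1 without the first DMSO library and 2 without the second DMSO library. MCOLN1, a calcium channel of the lysosome, rose by 0.61 ± 0.07. In polyamine metabolism SMOX, which oxidises spermine, rose by 0.50 ± 0.08, and SMS, which makes it, fell by 0.67 ± 0.11.

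Of 27 genes of ribosome biogenesis and RNA polymerase I 6 fell and 1 rose, with the falls close to the 20.3% of all U266 genes; 2 fell without the first DMSO library and 3 with median-ratio scaling. NOP56, of the box C/D particles, fell by 0.47 ± 0.10. In the MYC and MAX network 4 of 9 genes fell and none rose, or 2 without the second DMSO library; MXD4, a repressor that pairs with MAX, fell by 1.12 ± 0.10. ELL2, the elongation factor that plasma cells use to make secreted antibody messages, was at 7.69 and 6.57 FPKM with I3MO and 18.9 and 18.7 FPKM with DMSO, and its response was lower in U266 than the mean of ARP1 and RPMI8226 by 1.73 (adjusted p = 5.9e-04, limma). Among glucose sensing genes KLF10 fell by 0.99, beside TXNIP. These genes were chosen after their values were seen, except those with the 4 smallest p-values of a list.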
